A study of Mus musculus with 9 samples.

Results

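The genes described here are the 47 genes of the machinery that starts DNA replication at origins and copies DNA at forks. They were chosen by gene symbol, and all 47 were among the 24444 symbols of the count table and among the 15171 genes with enough counts to be tested. They fall into 12 roles, among them the 6 subunits of the origin recognition complex, the 6 subunits of the MCM2-7 helicase and the 6 genes of the sliding clamp and its loader. RNA was sequenced in 9 mouse libraries, 3 from each of 3 groups. The first group is tumours grown in CD1-nude hosts, which lack a thymus, from implanted cells with Blbp-Cre, Ctnnb1Ex3flx/flx, Trp53flx/flx, Pik3caE545K and MycT58A. The second group is tumours from implanted cells of the same alleles with EV, an abbreviation that the labels do not spell out, in place of MycT58A. The third group is the cerebellum of healthy CD1-nude mice, here called normal cerebellum, whose labels list none of these alleles. Both tumour groups thus share the Cre line, driven by the Blbp promoter, and the Ctnnb1, Trp53 and Pik3ca alleles, and both were cut out as GFP-positive regions, so that host cells within those regions were sequenced with them. The replicates are called biological, but whether each tumour arose from its own preparation of cells is not stated, so the p-values reflect library-to-library spread, which may be partly technical.

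DNA replication begins in G1 phase, when the origin recognition complex, Cdc6 and Cdt1 load the MCM2-7 helicase onto DNA as an inactive ring, a step called licensing. In S phase the kinase of Cdc7 and Dbf4 helps turn the ring, with Cdc45 and the GINS complex, into an active helicase, and polymerases alpha, delta and epsilon, the PCNA clamp and the ligase then copy both strands. Most of these genes are transcribed in cycling cells, and most neurons of the adult cerebellum no longer divide. In bulk tissue, fewer cells of a type and less RNA per cell cannot be told apart.

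Total counts per library ran from 16631523 to 30410089. Levels are CPM, that is counts scaled to a common depth with TMM library sizes, and folds come from edgeR's quasi-likelihood test fitted to all 9 libraries, with p adjusted over all genes tested and a threshold of 0.05. Several libraries stood apart. Myc was at 918, 859 and 727 CPM in MycT58A tumours, at 360, 19.9 and 762 CPM in EV tumours and at 0.94, 1.59 and 32.0 CPM in normal cerebellum, so the library labelled EV replicate 3 lay within the MycT58A range. Mki67, a marker of cycling cells, was at 9.89 CPM in normal replicate 3, against 0.736 and 0.354 CPM in the other normal libraries. EV replicate 2 was the lowest EV library for 42 of the 47 replication genes (89.4%), against 34.4% of all genes tested. The 8 granule neuron markers summed to 4408 to 6217 CPM in normal libraries, where the 5 forebrain cortex markers summed to 3.68 to 6.07 CPM and Emx1 had no count, although one label speaks of cortex. Ctnnb1, Trp53 and Pik3ca did not pass the test between the tumour groups (edgeR adjusted p = 0.943, 0.381 and 0.263), and their counts hold no allele information here.

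The replication genes were higher in tumours than in normal cerebellum and, by a smaller margin, higher in MycT58A tumours than in EV tumours. Against normal cerebellum, 45 of the 47 rose in MycT58A tumours, where 31.2% of all genes tested rose, with a median log2 fold change of 3.20 against -0.02 over all genes. In EV tumours 40 of the 47 rose, where 30.7% of all genes tested rose, with a median of 2.19 against 0.14. These comparisons share the 3 normal libraries. Between the tumour groups, 5 of the 47 rose in MycT58A tumours, where 3.28% of all genes tested rose. The median log2 fold change there was 0.96, against -0.04 over all genes. None of the 47 fell in MycT58A against EV tumours, where 5.02% of all genes fell, by edgeR, by DESeq2 or by limma-voom, and none did so at an unadjusted p under 0.05. None fell against normal cerebellum by any of these either. All MycT58A libraries lay above all normal libraries for 47 of 47 genes, where 41% of all genes had that order and 49.5% a fold change above 0. All EV libraries lay above all normal libraries for 39 of 47, where 30.3% did. Together the 47 genes took 0.582%, 0.489% and 0.548% of all counts in MycT58A tumours, 0.312%, 0.190% and 0.433% in EV tumours and 0.0738%, 0.0736% and 0.0799% in normal cerebellum. The libraries of the 3 groups did not overlap in this share. Markers of neurons, oligodendrocytes and astrocytes moved the other way in both tumour groups. Of all genes tested 31% fell in MycT58A and 26.3% in EV tumours. Of the granule neuron markers 8 of 8 fell in both, to sums of 12.2 to 53.1 CPM in MycT58A and 11.1 to 45.9 CPM in EV tumours, against 4408 to 6217 CPM in normal cerebellum. Purkinje markers (3 of 3) and oligodendrocyte markers (6 of 6) fell in both, as did 4 of 5 astrocyte markers. Purkinje sums were 3.30 to 23.1 CPM in MycT58A tumours, 3.25 to 14.8 CPM in EV tumours and 2699 to 3304 CPM in normal cerebellum. Oligodendrocyte sums were 44.8 to 652 CPM in MycT58A tumours, 77.5 to 288 CPM in EV tumours and 2784 to 5142 CPM in normal cerebellum. Astrocyte sums were 168 to 450 CPM in MycT58A tumours, 265 to 597 CPM in EV tumours and 3462 to 4388 CPM in normal cerebellum. Markers of other cell types did not all move that way. In EV tumours 4 of 9 microglia and macrophage markers and 6 of 8 pericyte and fibroblast markers rose, and 0 fell. In MycT58A tumours 1 of 9 and 3 of 8 rose, and 3 of 9 and 1 of 8 fell. Of 7 endothelial markers 1 fell in EV and 3 in MycT58A tumours, and 0 rose. The part of these changes in the folds over normal cerebellum was not tested.

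**Figure D1:**
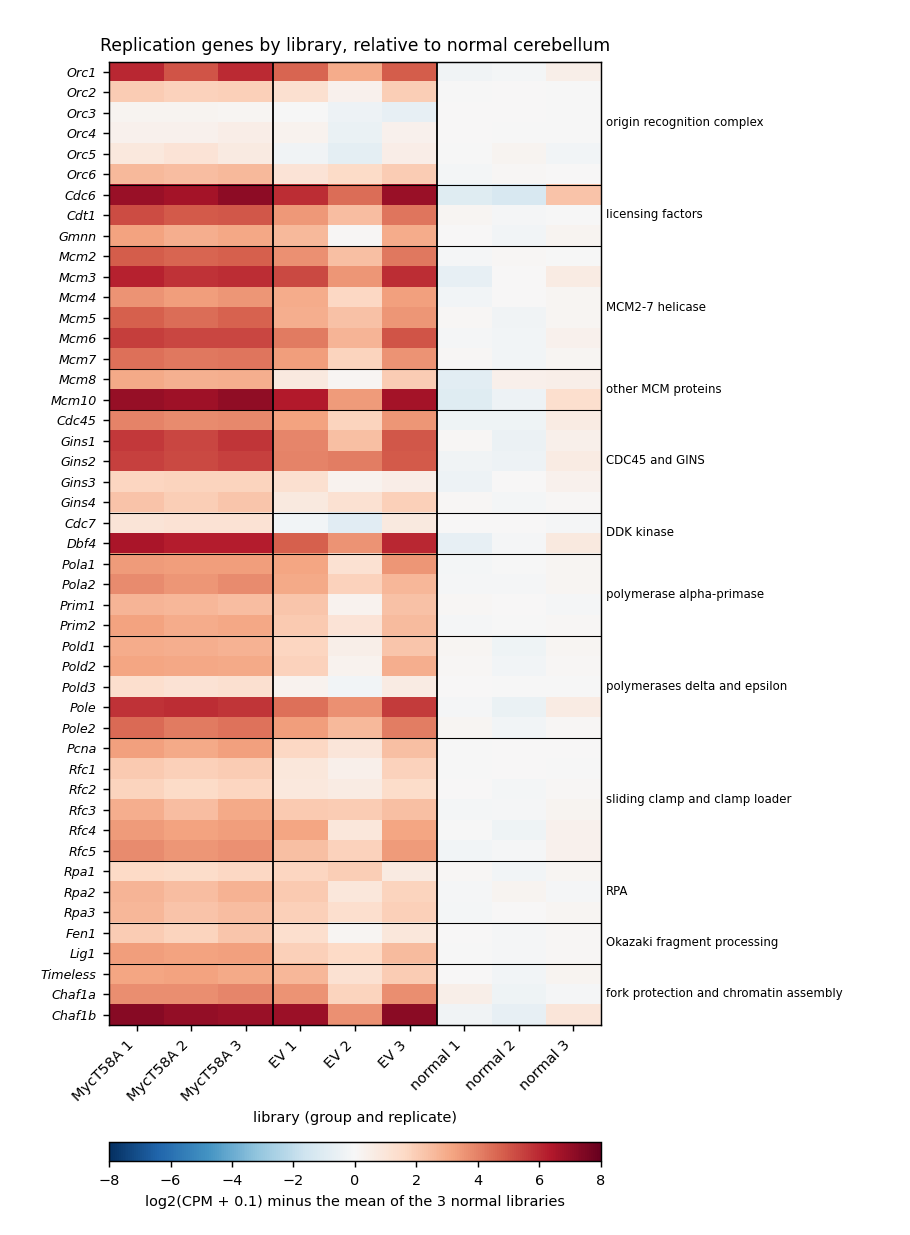
Each row is a replication gene, grouped by role, and each column a library. Colour gives log2(CPM + 0.1) minus the mean of the 3 normal libraries. The MycT58A columns look alike, EV replicate 2 is paler than EV replicates 1 and 3 in most rows, and Orc3, Orc4, Orc5 and Cdc7 stay pale in all columns.

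In MycT58A tumours against EV tumours the 5 genes that passed the test belong to 5 roles. Orc6 encodes the smallest subunit of the origin recognition complex (chromosome 8, 85299632 to 85308278, mm10). It stood at 62.7, 58.4 and 62.3 CPM in MycT58A tumours, at 22.5, 30.0 and 41.7 CPM in EV tumours and at 9.40, 11.1 and 10.5 CPM in normal cerebellum. The MycT58A libraries lay above all EV libraries, and Orc6 rose 1.95-fold (log2 fold change 0.96 ± 0.24 SE, edgeR adjusted p = 0.0445). Mcm5 encodes a subunit of the replicative helicase (chromosome 8, 75109569 to 75128439). Its levels were 391, 308 and 367 CPM in MycT58A tumours, 107, 70.5 and 164 CPM in EV tumours and 15.2, 11.4 and 15.9 CPM in normal cerebellum. No library of a group overlapped another group, and the MycT58A level was 3.13-fold that of EV tumours (log2 fold change 1.65 ± 0.31 SE, edgeR adjusted p = 0.0226). Pold3, an accessory subunit of polymerase delta (chromosome 7, 100082111 to 100121565), had 44.0, 39.0 and 42.6 CPM in MycT58A tumours. Its EV libraries had 21.1, 14.7 and 27.7 CPM and its normal libraries 17.9, 16.7 and 17.1 CPM, so that EV and normal values overlapped while all MycT58A values lay above both. Pold3 rose 1.98-fold over EV tumours (log2 fold change 0.99 ± 0.24 SE, edgeR adjusted p = 0.0443).

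Pcna, the ring that holds polymerases on DNA (chromosome 2, 132249162 to 132253314), had 450, 364 and 436 CPM in MycT58A tumours, 146, 87.5 and 238 CPM in EV tumours and 44.2, 45.9 and 46.3 CPM in normal cerebellum. The lowest MycT58A library was above the highest EV library, and Pcna rose 2.66-fold (log2 fold change 1.41 ± 0.33 SE, edgeR adjusted p = 0.0389). Lig1, the ligase that seals Okazaki fragments (chromosome 7, 13277283 to 13311433), had 174, 164 and 171 CPM in MycT58A tumours, 65.9, 52.7 and 99.3 CPM in EV tumours and 17.1, 16.5 and 18.5 CPM in normal cerebellum. The groups did not overlap, and the rise was 2.34-fold (log2 fold change 1.23 ± 0.23 SE, edgeR adjusted p = 0.0231). Fen1, Cdt1 and Pola2 lay just outside the threshold (edgeR adjusted p = 0.0512, 0.0535 and 0.0535). Of the 42 genes that did not pass, 34 also had every MycT58A library above every EV library, which makes 39 of 47, where 18.2% of all genes tested had that order and 13.6% the opposite order, which none of the 47 had. An unadjusted p under 0.05 was reached by 30 of the 47, where 13.3% of all genes rose at that level. All 47 fold changes were above 0, where 48.2% of all genes were, from 1.75 for Mcm8 to 0.01 for Rpa1 on the log2 scale, and Rpa1 turned negative under library-size scaling (-0.11) and RLE scaling (-0.025).

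These 5 calls were marginal. The fit estimates 1 spread per gene for all 3 groups, so SE and p between the tumour groups also draw on the normal libraries. The median SD of log2 CPM over the 47 genes was 0.81 in EV tumours, against 0.12 in MycT58A tumours and 0.20 in normal cerebellum. In fits that left out any 1 of the 3 normal or any 1 of the 3 MycT58A libraries 0 of the 47 genes passed. In these fits few genes of any kind passed, 0.523% to 0.668% of all genes without a normal library and 0.116% to 0.174% without a MycT58A library. With only the tumour groups in the fit 0 of the 47 passed, where 0.0707% of all genes rose. The folds of the 5 genes without any 1 normal or MycT58A library lay between 1.92 for Orc6 and 3.36 for Mcm5. Without EV replicate 1, 2 or 3 the count was 9, 13 or 27, where 4.56%, 8.91% and 10.9% of all genes rose. Pold3 and Pcna were not among the 9 (edgeR adjusted p = 0.0572 and 0.0591). DESeq2 called 20 and limma-voom 15, where 8.77% and 5.83% of all genes rose, and both kept the 5. Both also pool the spread over the groups. With voom weights per group limma-voom called 4, where 0.929% of all genes rose. Markers of other cell types also differed in this comparison, where 5.02% of all genes fell. Of 9 microglia and macrophage markers 4 were lower in MycT58A tumours, and the list summed to 40.6 to 111 CPM there, against 141 to 507 CPM in EV tumours and 171 to 210 CPM in normal cerebellum. Of 8 pericyte and fibroblast markers 2 were lower, and the list summed to 1442 to 1766 CPM in MycT58A tumours, against 2728 to 11886 CPM in EV tumours and 280 to 360 CPM in normal cerebellum. Single genes carried much of these sums and differed between EV libraries. In EV replicates 1, 2 and 3 Col1a1 had 11.1, 3103 and 6006 CPM and Dcn 1088, 7020 and 76.5 CPM. In MycT58A tumours Col1a1 had 46.8, 53.4 and 19.0 CPM and Dcn 1017, 1375 and 1316 CPM. Of 7 endothelial markers 0 passed by edgeR, with 4 lower at an unadjusted p under 0.05, where 2710 of all 15171 genes tested were. The 7 markers summed to 52.2 to 92.7 CPM in MycT58A tumours and 58.6 to 300.2 CPM in EV tumours. None of these lists had a gene without counts in any group, and their part in the replication values was not tested.

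**Figure D2:**
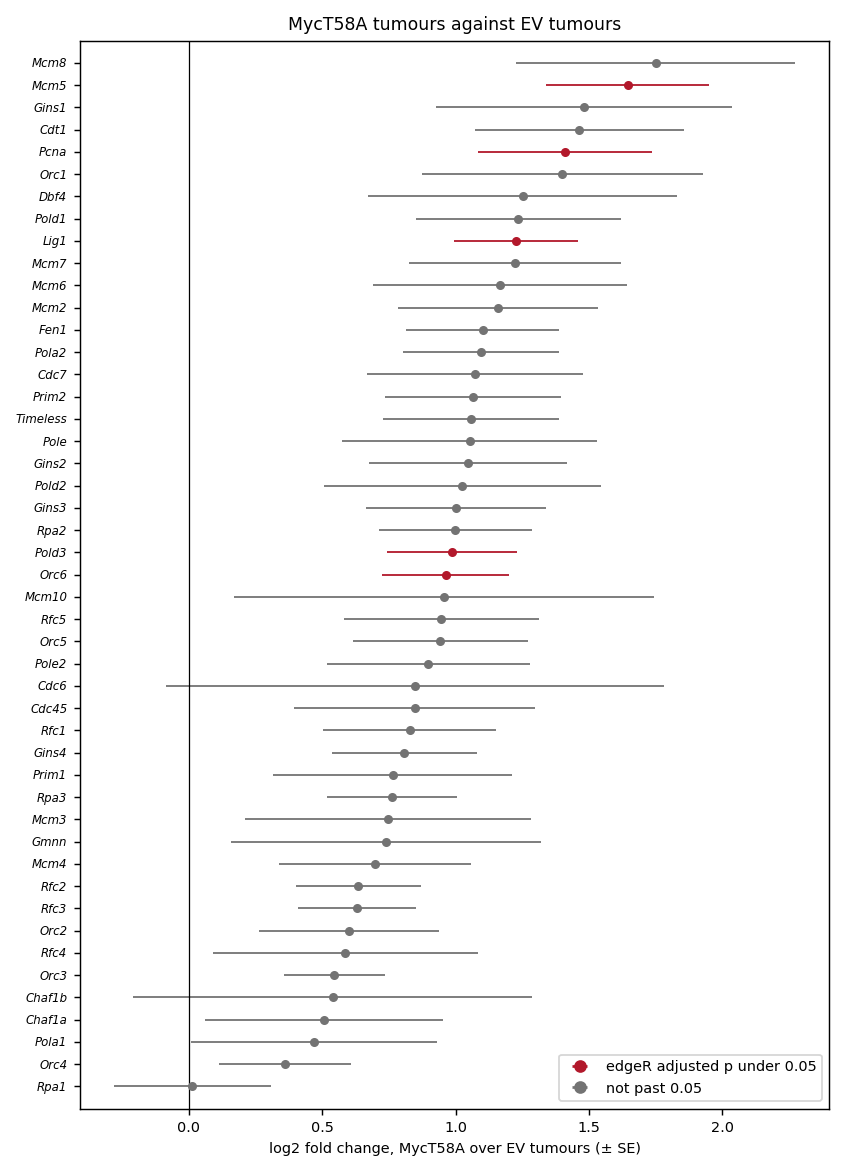
Points are log2 fold changes of MycT58A over EV tumours for the 47 replication genes. Bars are ± 1 SE, derived from the F statistic of the edgeR test. All points lie at or right of 0, and red marks the 5 genes past an adjusted p of 0.05.

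The promoters of the 5 genes that passed, and that of Orc3, which passed in none of the 3 comparisons, are shown to compare their motif content. RefSeq windows on GRCm38.p6 of 300 bases, 250 before and 50 after a transcript start, were at hand for 39 of the 47 genes, 48 windows in all. Capitals mark matches on either strand to the E2F words TTTGGCGC, TTTCCCGC, TTTGCCGC and TTTCGCGC, the E-box CACGTG and the CCAAT box. E2F factors act on S phase genes, and MYC binds E-boxes with its partner MAX. The windows are Mcm5 at chr8:75109259-75109558 (plus strand), Pcna at chr2:132253131-132253430 (minus strand), Lig1 at chr7:13278576-13278875 (plus strand), Orc6 at chr8:85299382-85299681 (plus strand), Pold3 at chr7:100121453-100121752 (minus strand) and Orc3 at chr4:34614893-34615192 (minus strand). Lig1 has 3 windows, of which the one with an E2F word is shown, and another holds an E-box. Orc4, which like Orc3 passed in none of the comparisons, has 3 windows without an E2F word, which are not shown.
Mcm5: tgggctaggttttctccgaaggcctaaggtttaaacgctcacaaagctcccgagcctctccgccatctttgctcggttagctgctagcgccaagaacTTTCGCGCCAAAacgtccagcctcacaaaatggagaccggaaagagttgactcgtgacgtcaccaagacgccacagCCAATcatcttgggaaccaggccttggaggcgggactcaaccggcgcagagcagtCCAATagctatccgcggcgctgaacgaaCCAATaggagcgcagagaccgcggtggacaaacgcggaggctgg
Pcna: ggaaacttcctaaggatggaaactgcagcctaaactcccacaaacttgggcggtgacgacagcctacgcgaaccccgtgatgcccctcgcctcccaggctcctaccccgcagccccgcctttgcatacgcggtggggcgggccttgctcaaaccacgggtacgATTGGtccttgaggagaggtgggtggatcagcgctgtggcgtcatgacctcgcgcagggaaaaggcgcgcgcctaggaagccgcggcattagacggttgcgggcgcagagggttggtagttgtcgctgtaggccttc
Lig1: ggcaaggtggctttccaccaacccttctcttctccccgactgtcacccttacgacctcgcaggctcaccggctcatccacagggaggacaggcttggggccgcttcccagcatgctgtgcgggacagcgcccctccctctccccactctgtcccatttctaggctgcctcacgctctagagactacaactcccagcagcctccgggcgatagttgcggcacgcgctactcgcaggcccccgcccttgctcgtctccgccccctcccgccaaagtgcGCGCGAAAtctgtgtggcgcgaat
Orc6: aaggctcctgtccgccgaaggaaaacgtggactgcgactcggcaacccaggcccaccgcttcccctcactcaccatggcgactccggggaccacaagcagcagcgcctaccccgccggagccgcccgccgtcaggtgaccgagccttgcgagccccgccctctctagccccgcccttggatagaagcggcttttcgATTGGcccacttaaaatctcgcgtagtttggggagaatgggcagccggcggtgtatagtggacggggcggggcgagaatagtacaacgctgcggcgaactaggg
Pold3: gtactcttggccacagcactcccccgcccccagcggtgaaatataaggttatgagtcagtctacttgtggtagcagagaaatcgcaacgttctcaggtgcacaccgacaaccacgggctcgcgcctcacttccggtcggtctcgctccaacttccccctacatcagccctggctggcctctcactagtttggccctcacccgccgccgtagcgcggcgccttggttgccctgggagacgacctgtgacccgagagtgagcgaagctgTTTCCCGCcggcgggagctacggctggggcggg
Orc3: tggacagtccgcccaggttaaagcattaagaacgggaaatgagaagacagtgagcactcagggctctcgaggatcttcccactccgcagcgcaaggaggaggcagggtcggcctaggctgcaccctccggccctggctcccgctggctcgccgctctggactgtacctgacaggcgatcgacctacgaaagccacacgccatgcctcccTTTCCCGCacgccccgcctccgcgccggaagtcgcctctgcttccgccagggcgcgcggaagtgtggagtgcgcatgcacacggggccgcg
In the Mcm5 window an E2F word on each strand overlaps in 1 run, which starts 153 bases before the transcript start, and 3 CCAAT boxes follow. Lig1, Pold3 and Orc3 each hold 1 E2F word, and Pcna and Orc6 hold none of these words but 1 CCAAT box each, read on the opposite strand. An E2F word stood in 16 of the 48 windows (33.3%), against 2.26% of all 32851 windows. E-boxes stood in 16.7% of the 48 and 7.15% of all windows, and CCAAT boxes in 52.1% and 37.4%. The median GC content was 62.3% in the 48 windows and 52.7% in all. The 16 genes with an E2F word had median log2 fold changes of 1.08 for MycT58A over EV tumours, 2.96 for EV tumours over normal cerebellum and 3.86 for MycT58A tumours over normal cerebellum, against 0.95, 1.87 and 3.08 for the 23 with a window and no such word. Over all genes tested these medians were 0.25, 0.40 and 0.60 for the 511 with an E2F word and -0.04, 0.14 and -0.02 for the 11077 with a window and none. A match describes letters only and is not evidence of binding.

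The origin recognition complex marks origins, and its subunits did not move alike. Orc1, the subunit whose level is regulated through the cell cycle, had 20.8, 10.4 and 19.4 CPM in MycT58A tumours, 7.98, 2.34 and 8.84 CPM in EV tumours and 0.163, 0.177 and 0.327 CPM in normal cerebellum. It rose 74.6-fold in MycT58A and 28.2-fold in EV tumours over normal cerebellum (edgeR adjusted p = 0.000127 and 0.000405). Orc6 rose 5.91-fold and 3.03-fold (edgeR adjusted p = 8.4e-05 and 0.00078), and Orc2 3.81-fold and 2.51-fold (edgeR adjusted p = 0.00156 and 0.0106). Orc3, Orc4 and Orc5 moved less. Orc3 had 98.4, 97.4 and 93.9 CPM in MycT58A tumours, 83.5, 62.3 and 52.7 CPM in EV tumours and 84.5, 84.1 and 82.0 CPM in normal cerebellum. It passed in neither tumour group (log2 fold change 0.21 ± 0.19 SE and -0.34 ± 0.19 SE, edgeR adjusted p = 0.354 and 0.157). Without EV replicate 1 the EV value fell past the threshold (log2 fold change -0.54, edgeR adjusted p = 0.0179). Orc4 had 40.9, 40.6 and 46.5 CPM in MycT58A tumours, 38.7, 21.4 and 39.5 CPM in EV tumours and 33.0, 31.0 and 31.0 CPM in normal cerebellum, and it too passed in neither (edgeR adjusted p = 0.158 and 0.824).

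Orc5 had 41.8, 50.1 and 39.3 CPM in MycT58A tumours, 19.7, 14.0 and 34.8 CPM in EV tumours and 23.2, 27.7 and 20.4 CPM in normal cerebellum. EV and normal libraries overlapped (log2 fold change -0.06 ± 0.33 SE, edgeR adjusted p = 0.883), and the sign of the EV value turned under 4 alternatives. The 1.84-fold rise in MycT58A tumours (edgeR adjusted p = 0.0426) ended without any 1 of the MycT58A or normal libraries, under RLE scaling and with library size alone, at adjusted p of 0.0538 to 0.134. Per length of exon, as RPKM, which is CPM per kilobase of exon, Orc3 made up 27.4%, 28.2% and 27% of the 6 subunits' sum in MycT58A tumours, 38.6%, 38.7% and 20.1% in EV tumours and 52.3%, 49.9% and 52.3% in normal cerebellum. It was the highest of all 47 genes per length in normal cerebellum, at 36.3 ± 0.59 RPKM (SD, n = 3), and ranked 17 in MycT58A tumours at 42.0 ± 1.02 RPKM (SD, n = 3). Exons of Orc2 overlap those of the opposite-strand gene Nif3l1 over 24% of their length and those of Orc1 overlap Gm12743 over 11.9%. Whether strand was used in counting is not given in the sources used here, so reads of such pairs cannot be told apart.

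Licensing factors load the helicase. Cdt1, a loader that is destroyed in S phase, had 178, 144 and 147 CPM in MycT58A tumours, 52.2, 26.0 and 91.8 CPM in EV tumours and 5.15, 4.30 and 4.48 CPM in normal cerebellum. All 3 groups stood apart, and it rose 33.6-fold in MycT58A and 12.2-fold in EV tumours over normal cerebellum (edgeR adjusted p = 5.97e-05 and 0.000231). Gmnn, which binds Cdt1 and blocks its reuse, had 36.3, 29.5 and 32.7 CPM in MycT58A tumours, 23.7, 4.12 and 31.2 CPM in EV tumours and 3.88, 3.23 and 4.43 CPM in normal cerebellum. EV replicate 2 lay within the normal range, and the rise was 8.52-fold in MycT58A and 5.10-fold in EV tumours (edgeR adjusted p = 0.0028 and 0.0108). The EV call ended under limma-voom (adjusted p = 0.0763), the only one of the 17 alternatives in which it did. Per length, the ratio of Cdt1 to Gmnn was 2.66, 2.65 and 2.45 in MycT58A tumours, 1.195, 3.43 and 1.60 in EV tumours and 0.720, 0.722 and 0.549 in normal cerebellum. By these exon lengths every tumour library had more Cdt1 than Gmnn and every normal library less. The annotation behind the counts is not given and EV replicate 1 lay near 1, so which of the 2 RNAs is more abundant is uncertain.

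Cdc6, the ATPase that joins the origin recognition complex to load the helicase, had 42.7, 35.3 and 49.7 CPM in MycT58A tumours, 21.3, 7.90 and 41.8 CPM in EV tumours and 0.0817, 0.0443 and 1.59 CPM in normal cerebellum. The normal values are 2, 1 and 34 counts, so normal replicate 3 sets most of the normal mean. Its fold over normal cerebellum was 75.1 in MycT58A and 41.8 in EV tumours (edgeR adjusted p = 0.00208 and 0.00441). Without normal replicate 3 the ratio to the 3 remaining counts was 661 in MycT58A tumours (95% exact interval 226 to 3207) and 344 in EV tumours (95% exact interval 118 to 1670), intervals that cover counting error only. Without EV replicate 3 the EV fold was 26.5. The tumour groups overlapped (edgeR adjusted p = 0.557). The pseudogene Gm9430 is 95.22% identical to Cdc6 over 1528 bases, so the split of reads between them is uncertain.

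All 6 genes of the MCM2-7 helicase, the motor that unwinds DNA, rose in both tumour groups over normal cerebellum. Of all genes tested 31.2% rose in MycT58A and 30.7% in EV tumours. For each of the 6, every tumour library lay above every normal library. Of all genes 41% had that order in MycT58A and 30.3% in EV tumours. Mcm2 had 281, 243 and 269 CPM in MycT58A tumours, 124, 52.0 and 179 CPM in EV tumours and 9.11, 10.3 and 9.66 CPM in normal cerebellum. Mcm3 had 331, 258 and 281 CPM in MycT58A tumours, 185, 53.6 and 280 CPM in EV tumours and 2.90, 4.65 and 7.23 CPM in normal cerebellum. For Mcm3 alone of the 6, the highest EV library reached into the MycT58A range. Mcm4 had 202, 171 and 194 CPM in MycT58A tumours, 132, 52.9 and 165 CPM in EV tumours and 14.5, 17.1 and 19.1 CPM in normal cerebellum. Mcm6 had 413, 362 and 355 CPM in MycT58A tumours, 157, 58.9 and 288 CPM in EV tumours and 8.25, 7.35 and 11 CPM in normal cerebellum. Within EV tumours the levels of these genes ran apart by several fold, while the MycT58A libraries lay close together. Mcm7 had 468, 410 and 429 CPM in MycT58A tumours, 223, 75.2 and 262 CPM in EV tumours and 23.1, 18.2 and 23.7 CPM in normal cerebellum.

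The folds over normal cerebellum were 58.8 and 35.0 for Mcm3, 42.4 and 18.9 for Mcm6, 27.3 and 12.2 for Mcm2, 25.1 and 8.03 for Mcm5, 20.1 and 8.62 for Mcm7 and 11.2 and 6.88 for Mcm4, each in MycT58A and then in EV tumours. The edgeR adjusted p ran from 3.19e-05 for Mcm5 to 0.000158 for Mcm4 in MycT58A tumours and from 0.000148 for Mcm5 to 0.000485 for Mcm4 in EV tumours. Without EV replicate 3 the EV fold of Mcm6 was 12.4. Per length the 6 genes were more even in tumours than in normal cerebellum. The highest over the lowest was 2.81, 2.91 and 2.68 in MycT58A tumours, 2.43, 1.89 and 2.01 in EV tumours and 8.16, 4.01 and 3.35 in normal cerebellum. Mcm7 was the highest per length in 8 of the 9 libraries, with Mcm3 highest in EV replicate 3, and Mcm3 was the lowest in all 3 normal libraries. Mcm7 shares 97.68% of 2157 bases with the pseudogene Gm5487 and 10.8% of its exon length with the opposite-strand gene Ap4m1, so its level is uncertain.

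**Figure D3:**
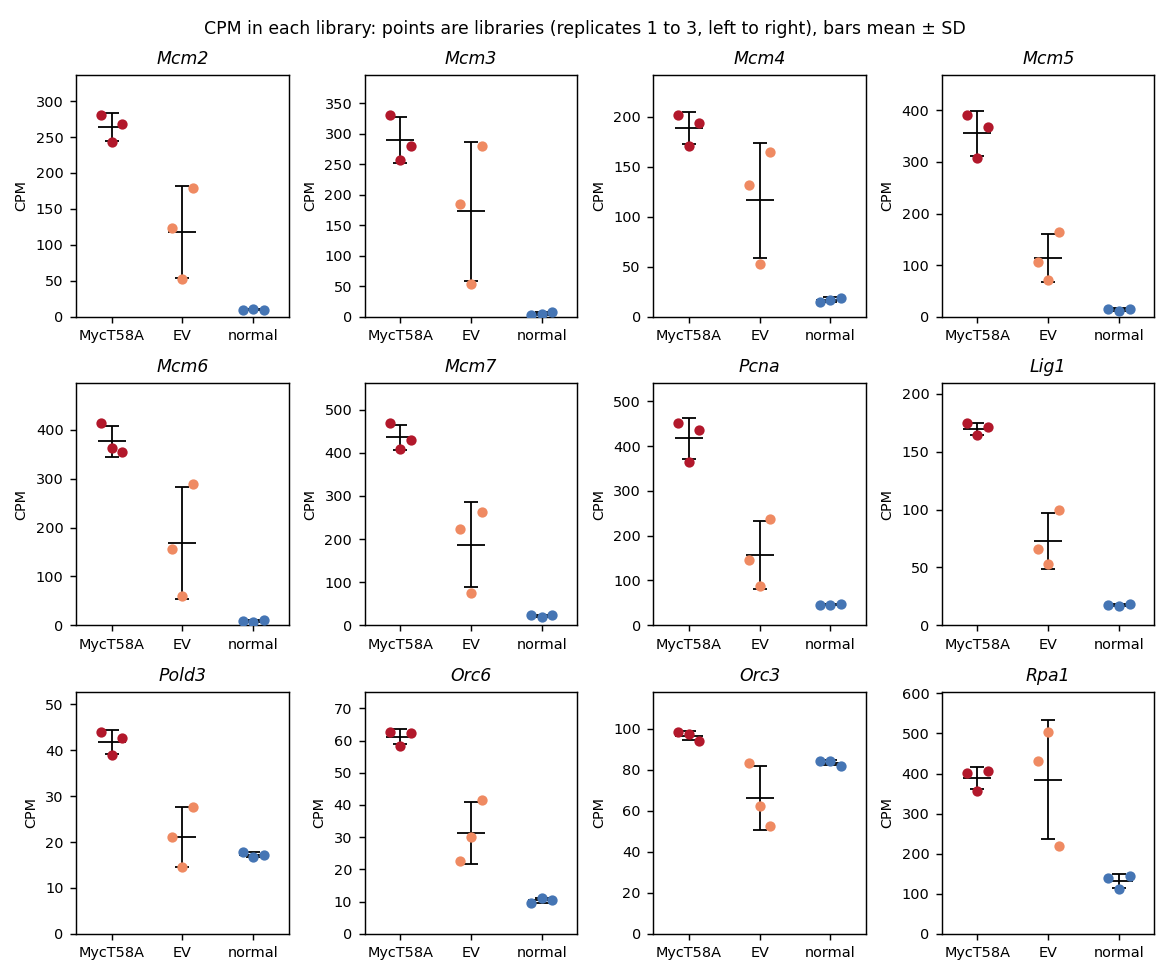
CPM per library of the 6 helicase genes, of the other 4 genes that passed between the tumour groups (Pcna, Lig1, Pold3, Orc6) and of Orc3 and Rpa1. Points are libraries, and lines give mean ± SD of 3. Helicase values lie near 0 in normal cerebellum and spread widely in EV tumours, while Orc3 stays between 52.7 and 98.4 CPM in all 9 libraries and Rpa1 is highest in EV replicate 2, at 504 CPM.

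Among the other MCM proteins, Mcm10, which helps to fire the assembled helicase, had 76.1, 65.5 and 82.6 CPM in MycT58A tumours, 48.4, 6.33 and 60.8 CPM in EV tumours and 0.204, 0.354 and 1.45 CPM in normal cerebellum. It was 112-fold and 57.8-fold above normal in MycT58A and EV tumours (edgeR adjusted p = 0.000622 and 0.00134), and without normal replicate 3 the folds were 267 and 141. Mcm8, a helicase of homologous recombination, had 43.5, 39.0 and 40.5 CPM in MycT58A tumours, 9.14, 5.73 and 21.7 CPM in EV tumours and 2.82, 7.04 and 7.23 CPM in normal cerebellum. EV and normal libraries overlapped (edgeR adjusted p = 0.1), whereas the 7.19-fold rise in MycT58A tumours passed (edgeR adjusted p = 0.00206). Its log2 fold change between the tumour groups, 1.75 ± 0.52 SE, was the highest of the 47 but did not pass (edgeR adjusted p = 0.07). The fold was 5.47 without EV replicate 3, against 3.37 with all libraries, and Mcm8 then passed (edgeR adjusted p = 0.00926). It also passed by DESeq2 (adjusted p = 0.0118) and by limma-voom (adjusted p = 0.0219), and its adjusted p over all alternatives ran from 0.00926 to 0.173.

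Cdc45 and the GINS complex complete the active helicase. Gins2 had 32.0, 27.3 and 31.6 CPM in MycT58A tumours, 11, 11.9 and 21.1 CPM in EV tumours and 0.490, 0.443 and 1.03 CPM in normal cerebellum. Its groups did not overlap, with rises of 46.2-fold in MycT58A and 22.4-fold in EV tumours (edgeR adjusted p = 4.35e-05 and 9.56e-05), but 70.7% of its exon length overlaps the opposite-strand gene Gse1. Gins1 had 44.0, 34.8 and 45.9 CPM in MycT58A tumours, 13.2, 4.50 and 27 CPM in EV tumours and 0.817, 0.532 and 1.03 CPM in normal cerebellum. It stood 52.2-fold and 18.7-fold above normal (edgeR adjusted p = 0.000191 and 0.000751), with 11.4-fold for EV tumours without EV replicate 3. Cdc45 rose 14.2-fold and 7.89-fold (edgeR adjusted p = 0.000319 and 0.00115) and Gins4 4.49-fold and 2.57-fold (edgeR adjusted p = 0.000298 and 0.00335). Gins3 was the exception, at 15.4, 16.3 and 15.8 CPM in MycT58A tumours, 11.3, 5.61 and 6.75 CPM in EV tumours and 3.47, 4.65 and 5.93 CPM in normal cerebellum. It rose 3.38-fold in MycT58A tumours (edgeR adjusted p = 0.00232), and its EV libraries overlapped the normal ones (edgeR adjusted p = 0.0849).

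The Dbf4-dependent kinase, which phosphorylates the loaded MCM ring, has a regulatory and a catalytic subunit, whose values differed widely. Dbf4 had 93.0, 79.6 and 78.8 CPM in MycT58A tumours, 27.3, 12 and 66.2 CPM in EV tumours and 0.531, 0.842 and 1.63 CPM in normal cerebellum. It rose 83.6-fold in MycT58A and 35.1-fold in EV tumours (edgeR adjusted p = 0.000166 and 0.000449), where the EV fold was 53.0 without normal replicate 3 and 20.1 without EV replicate 3. Cdc7, the catalytic subunit, had 14.0, 15.4 and 15.1 CPM in MycT58A tumours, 5.86, 3.57 and 11.8 CPM in EV tumours and 7.11, 7.09 and 6.44 CPM in normal cerebellum. EV libraries lay on both sides of the normal ones (log2 fold change 0.04 ± 0.40 SE, edgeR adjusted p = 0.943), and the sign turned without EV replicate 3 and under limma-voom. The 2.16-fold rise of Cdc7 in MycT58A tumours (edgeR adjusted p = 0.0401) ended without any 1 of the MycT58A or normal libraries and with library size alone, at adjusted p of 0.0579 to 0.113. Per length, the ratio of Dbf4 to Cdc7 was 8.79, 6.85 and 6.90 in MycT58A tumours, 6.19, 4.47 and 7.44 in EV tumours and 0.0990, 0.157 and 0.336 in normal cerebellum. Dbf4 thus exceeded Cdc7 per length in every tumour library and in no normal library.

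Polymerase alpha and primase lay the first primers. All 4 genes rose in both tumour groups over normal cerebellum, where 31.2% of all genes rose in MycT58A and 30.7% in EV tumours. Pola2, the accessory subunit, had 63.5, 53.6 and 62.6 CPM in MycT58A tumours, 38.3, 16.8 and 28.9 CPM in EV tumours and 4.21, 4.34 and 5.18 CPM in normal cerebellum. The rise was 13.1-fold in MycT58A and 6.12-fold in EV tumours (edgeR adjusted p = 5.21e-05 and 0.000231). Pola1, the catalytic subunit, had 123, 118 and 118 CPM in MycT58A tumours, 102, 27 and 130 CPM in EV tumours and 10.1, 11.3 and 12.8 CPM in normal cerebellum. One EV library exceeded all MycT58A libraries, and the log2 fold change between the tumour groups was 0.47 ± 0.46 SE (edgeR adjusted p = 0.507). Prim2, the large primase subunit, rose 8.63-fold and 4.12-fold over normal cerebellum in MycT58A and EV tumours (edgeR adjusted p = 0.000162 and 0.00126). Prim1, its catalytic partner, rose 6.22-fold and 3.66-fold (edgeR adjusted p = 0.00149 and 0.00843).

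Polymerases delta and epsilon extend the lagging and the leading strand. Pole, the catalytic subunit of polymerase epsilon, had 114, 121 and 109 CPM in MycT58A tumours, 44.1, 25.1 and 96.8 CPM in EV tumours and 1.80, 1.28 and 3.13 CPM in normal cerebellum. It rose 55.4-fold and 26.7-fold (edgeR adjusted p = 9.73e-05 and 0.00023), with 17.0-fold for EV tumours without EV replicate 3. Pole2 had 19.1, 15.2 and 17.2 CPM in MycT58A tumours, 8.42, 4.97 and 14.2 CPM in EV tumours and 0.817, 0.620 and 0.793 CPM in normal cerebellum, and rose 22.9-fold and 12.3-fold (edgeR adjusted p = 8.49e-05 and 0.00023). The genes of polymerase delta had smaller folds. Pold2, an accessory subunit, rose 8.44-fold and 4.15-fold (edgeR adjusted p = 0.00155 and 0.0109), with 2.49-fold for EV tumours without EV replicate 3. Pold1, the catalytic subunit, rose 7.36-fold and 3.13-fold (edgeR adjusted p = 0.000436 and 0.00701). Pold3 rose 2.43-fold in MycT58A tumours (edgeR adjusted p = 0.0021) and did not pass in EV tumours (log2 fold change 0.29 ± 0.24 SE, edgeR adjusted p = 0.325).

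The sliding clamp and all 5 clamp loader genes, which open and close the ring on DNA, rose in both tumour groups over normal cerebellum. Of all genes tested 31.2% rose in MycT58A and 30.7% in EV tumours. Pcna rose 9.18-fold in MycT58A and 3.46-fold in EV tumours (edgeR adjusted p = 0.00013 and 0.00209). Per length it was the highest of the 47 genes in both tumour groups, at 275 ± 30.4 RPKM in MycT58A and 103 ± 50.02 RPKM in EV tumours (SD, n = 3 each), and the next after Orc3 in normal cerebellum at 29.9 ± 0.74 RPKM (SD, n = 3). Rfc3, a small loader subunit, had 49.1, 37.4 and 54.5 CPM in MycT58A tumours, 29.0, 27 and 35.1 CPM in EV tumours and 6.01, 6.25 and 7.70 CPM in normal cerebellum. The EV libraries of Rfc3 lay close together, and it rose 7.07-fold and 4.56-fold (edgeR adjusted p = 4.53e-05 and 0.000133). The other loader genes ran from 12.6-fold and 6.51-fold for Rfc5 to 3.21-fold and 2.07-fold for Rfc2, with Rfc4 at 10.02-fold and 6.67-fold and Rfc1, the large subunit, at 4.09-fold and 2.30-fold. Pcna shares 99.23% of 781 bases with Pcna-ps2 and Rfc5 96.18% of 1020 bases with Gm12870, and exons of Rfc2, Rfc5 and Rfc4 overlap opposite-strand genes over 19.1%, 15.4% and 13.4% of their length.

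RPA coats single-stranded DNA at the fork. Rpa1, its large subunit, had 402, 357 and 406 CPM in MycT58A tumours, 432, 504 and 218 CPM in EV tumours and 139, 111 and 144 CPM in normal cerebellum. Its order among EV libraries ran against that of most of the 47 genes, with EV replicate 2 highest. The tumour groups overlapped (edgeR adjusted p = 0.978), and the rise over normal cerebellum was 2.96-fold in MycT58A and 2.93-fold in EV tumours (edgeR adjusted p = 0.00212 and 0.00269). Rpa3, the smallest subunit, had 30.8, 23.4 and 27 CPM in MycT58A tumours, 17.9, 12.1 and 17.9 CPM in EV tumours and 4.29, 4.83 and 5.27 CPM in normal cerebellum. It rose 5.63-fold and 3.32-fold (edgeR adjusted p = 0.000104 and 0.000619), and Rpa2 rose 6.33-fold and 3.17-fold (edgeR adjusted p = 0.000158 and 0.00164).

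Lig1 and Fen1 finish Okazaki fragments, the short pieces of the lagging strand. Lig1 rose 9.78-fold in MycT58A and 4.18-fold in EV tumours over normal cerebellum (edgeR adjusted p = 3.31e-05 and 0.000212). Fen1, the nuclease that trims the flap, had 90.4, 76.3 and 103 CPM in MycT58A tumours, 58.2, 25.6 and 41.8 CPM in EV tumours and 22.7, 21.1 and 23.8 CPM in normal cerebellum. It rose 3.99-fold and 1.86-fold (edgeR adjusted p = 0.000549 and 0.0262), and the EV call ended without any 1 normal library or EV replicate 1, with only EV and normal libraries in the fit and under limma-voom with group weights (adjusted p of 0.0581 to 0.0777). Exons of Fen1 overlap the antisense gene Gm10143 over 78.8% of their length. Timeless, which protects stalled forks, had 75.1, 77.3 and 67.3 CPM in MycT58A tumours, 52.8, 19.6 and 33.1 CPM in EV tumours and 8.21, 7.04 and 9.52 CPM in normal cerebellum. It rose 8.86-fold and 4.26-fold (edgeR adjusted p = 0.000155 and 0.00115).

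Chaf1a and Chaf1b encode subunits of the chromatin assembly factor that places histones on new DNA. Chaf1b had 111, 95.8 and 85.8 CPM in MycT58A tumours, 83.9, 9 and 109 CPM in EV tumours and 0.490, 0.354 and 1.35 CPM in normal cerebellum. Its folds over normal cerebellum, 133 in MycT58A and 91.7 in EV tumours, were the highest of the 47 (edgeR adjusted p = 0.000436 and 0.000719), and without normal replicate 3 they were 231 and 163. The tumour groups overlapped, with EV replicate 3 close to the top of the MycT58A range and EV replicate 2 far below (edgeR adjusted p = 0.644). Chaf1a rose 13.4-fold and 9.44-fold (edgeR adjusted p = 0.000326 and 0.000742), with 33.6% of its exon length shared with the opposite-strand gene Ubxn6.

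**Figure D4:**
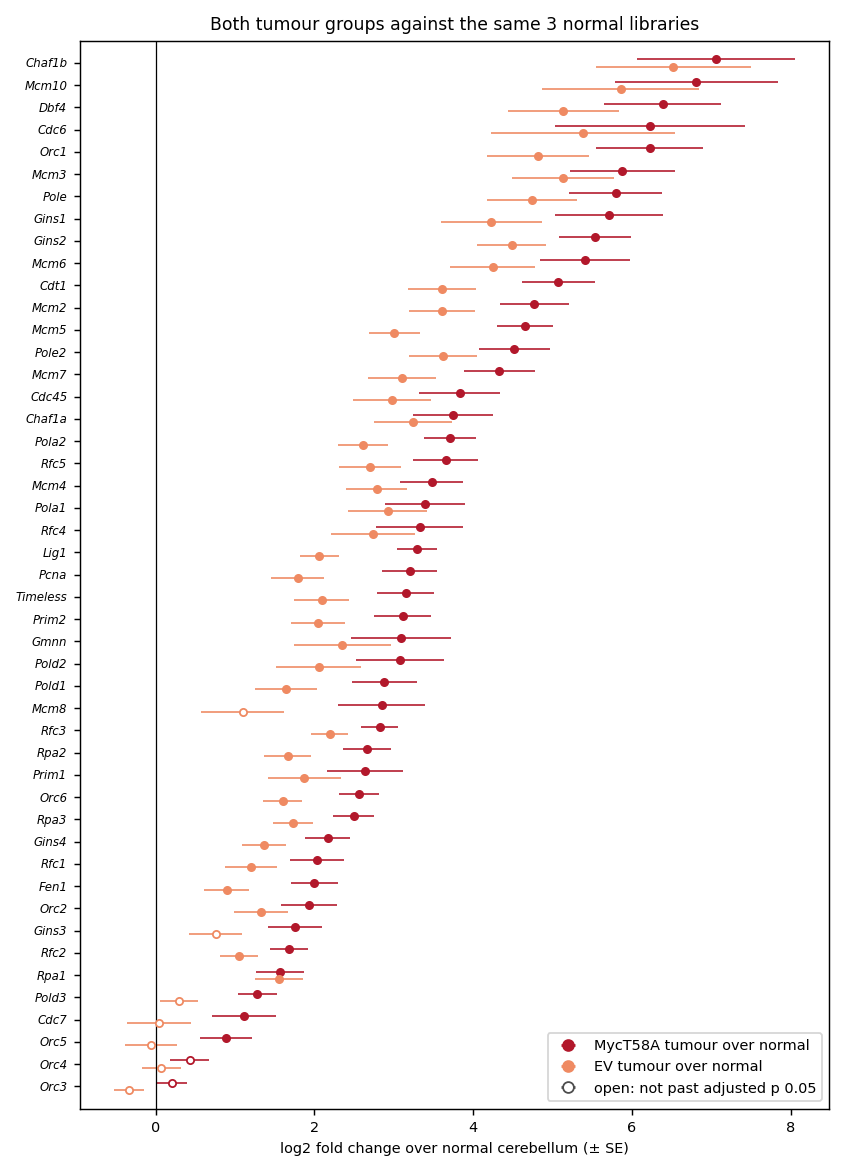
Log2 fold changes over normal cerebellum of the 47 genes, in MycT58A tumours (red) and EV tumours (orange), ordered by the MycT58A value, with bars of ± 1 SE. Open points did not pass an adjusted p of 0.05. Both sets use the same 3 normal libraries. Chaf1b, Mcm10 and Dbf4 lead in MycT58A tumours, and 7 EV points but 2 MycT58A points are open.

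The groups differed in how alike their libraries were. The median SD of log2 CPM over the 47 genes was 0.12 in MycT58A tumours, 0.81 in EV tumours and 0.20 in normal cerebellum. EV tumours had the larger SD of the tumour groups for 46 of the 47 genes (97.9%), against 86.1% of all genes tested. Relative to the normal mean, the median log2 level of the 47 genes was 3.31, 3.22 and 3.26 in the MycT58A libraries, 2.43, 1.53 and 2.64 in the EV libraries and -0.04, -0.10 and 0.14 in the normal libraries. EV replicate 3, with Myc in the MycT58A range, was the highest EV library for 38 of the 47 genes (80.9%), against 30.6% of all genes, and its median was still below those of the MycT58A libraries. EV replicate 2, with the lowest Myc of the tumours, also had the highest summed pericyte and fibroblast markers (11886 CPM) and microglia and macrophage markers (507 CPM) of the 9 libraries. Of the 11886 CPM, Dcn held 7020 and Col1a1 3103 CPM, and Col1a1 was higher in EV replicate 3, at 6006 CPM. The part of these markers in the order of the EV libraries was not tested.

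**Figure D5:**
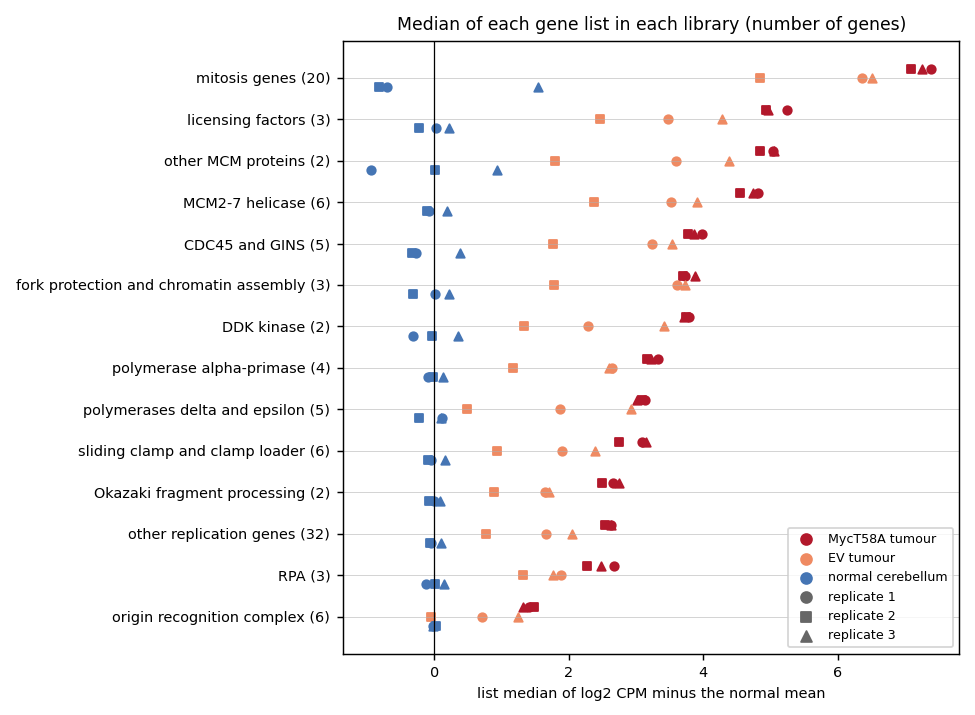
Median log2 CPM minus the normal mean of each gene list in each library, with the number of genes in brackets. Colours are groups and shapes are replicates. MycT58A points lie together, EV replicate 2 (orange square) is the lowest tumour point in every list shown, and the mitosis genes of normal replicate 3 (blue triangle) lie at 1.54.

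Of 32 further genes of replication outside the 47, 28 rose in MycT58A and 26 in EV tumours over normal cerebellum. Of all genes tested 31.2% and 30.7% rose there. The median log2 fold changes of the 32 were 2.59 and 1.73. In MycT58A over EV tumours their median was 0.88 and 3 of them rose, where 3.28% of all genes did. Those 3 were Rnaseh2b, of the enzyme that removes ribonucleotides from DNA (1.77-fold, edgeR adjusted p = 0.0248), Supt16, of the histone chaperone FACT (2.06-fold, edgeR adjusted p = 0.0249), and Rif1, a regulator of replication timing (2.47-fold, edgeR adjusted p = 0.0442). Rnaseh2b had 53.2, 53.7 and 52.8 CPM in MycT58A tumours, 29.7, 29.9 and 30.8 CPM in EV tumours and 8.25, 9.53 and 8.87 CPM in normal cerebellum, and its EV libraries lay close together. Rif1 had 106, 121 and 128 CPM in MycT58A tumours, 47.8, 27 and 68.8 CPM in EV tumours and 72.4, 96.4 and 66.0 CPM in normal cerebellum, and it did not pass against normal in either tumour group. The highest folds over normal cerebellum were those of Dtl, which targets Cdt1 for destruction, at 249 in MycT58A and 103 in EV tumours, and of Pclaf, a PCNA-binding protein, at 210 and 99.5. Dscc1, of an alternative clamp loader, followed in MycT58A tumours at 154-fold and Clspn, a checkpoint mediator, in EV tumours at 60.8-fold. These folds rest on few normal counts, 5, 4 and 21 for Dtl, 12, 4 and 31 for Pclaf, 6, 10 and 24 for Clspn and 0, 2 and 3 for Dscc1. Without normal replicate 3 they were 581 and 245 for Dtl and 437 and 212 for Pclaf in MycT58A and EV tumours, 258 for Dscc1 in MycT58A tumours and 109 for Clspn in EV tumours. At the low end, Pole4 was at -0.26 and -0.41, Rif1 at 0.60 and -0.71, Pold4 at 0.60 and 0.77 and Mcm9 at 1.18 and 0.30 on the log2 scale in MycT58A and EV tumours.

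All 20 mitosis genes also rose in both tumour groups over normal cerebellum, where 31.2% of all genes rose in MycT58A and 30.7% in EV tumours. Their median log2 fold change was 6.88 in MycT58A and 5.73 in EV tumours. Between the tumour groups the median was 1.26, and 1 of the 20, Nusap1, rose (2.99-fold, edgeR adjusted p = 0.0455). That count is close to the share of all genes that rose there, 3.28%. Mki67 had 384, 426 and 465 CPM in MycT58A tumours, 214, 125 and 303 CPM in EV tumours and 0.736, 0.354 and 9.89 CPM in normal cerebellum. The mitosis genes were thus further above normal than the 47 replication genes in all 6 tumour libraries, at 7.40, 7.08 and 7.26 in MycT58A tumours and 6.36, 4.85 and 6.51 in EV tumours as the median log2 level over the normal mean. These values rest on low normal levels. In normal cerebellum the 20 mitosis genes summed to 20.0, 17.8 and 86.6 CPM, against 747, 709 and 788 CPM for the 47 genes. More cycling cells and more replication RNA per cycling cell cannot be told apart here.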

How the data were processed

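The authors deposited whole-number counts by gene symbol, 9 libraries in 1 table, and the values show no normalization. All CPM, RPKM and folds were computed from those counts. The submitters' processing notes name bcl2fastq, TopHat, edgeR and the mm10 build. For versions, read counter, annotation and strand, nothing was given in the sources used here. Samples were grouped by source name and genotype, and replicate numbers only follow sample order. Pclaf was matched through 1 synonym.

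Low genes were removed by filterByExpr (edgeR 4.0.16 in R 4.3.3, count at least 10, total at least 15), which left 15171. After TMM scaling, glmQLFit and glmQLFTest used every library and gave each group its own mean, with 6 residual degrees of freedom. All 3 groups shared 1 spread per gene. P-values had Benjamini-Hochberg adjustment over the 15171 genes. Each SE was derived as the absolute log2 fold change divided by the square root of the F statistic of that test. Log2 CPM used a prior count of 2, and exon lengths for RPKM and gene positions came from a GENCODE annotation of the same build. Other settings tried were RLE scaling, plain library sizes, no filter, a filter of 1 CPM, fits on 2 groups, DESeq2 1.42.0, limma-voom (limma 3.58.1) with and without group weights, and each library left out. The code was tested on simulated counts, and matplotlib 3.10.9 drew the figures.

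The 47 genes, the lists and the tests were chosen with earlier results of these data known. Library values are given for genes past the threshold between the tumour groups, the 3 highest and 3 lowest folds per comparison, the smallest p of each role and MCM2-7. Orc1, Gmnn, Gins3, Pole and Fen1 were added after their values were seen. Pseudogenes are named from 95% identity over 200 bases. Promoter windows are from RefSeq, and 8 of the 47 genes had none at hand.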

Additional observations from a re-analysis of the deposited data

How the results depend on the processing

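The count of 5 replication genes that rose in MycT58A over EV tumours depended on the setting. It was 3 with RLE scaling, 2 with library size alone, 2 without the low-count filter, 3 with the filter of 1 CPM, 0 with only the tumour groups in the fit, 20 with DESeq2 and 15 with limma-voom, and 0 to 27 when 1 library was left out. The share of all genes that rose moved with it, from 3.28% in the reported fit to 2.81%, 1.98%, 1.33%, 2.93%, 0.0707%, 8.77% and 5.83% in those settings, in the same order, and to 0.116% to 10.9% when 1 library was left out. The 4 with voom weights per group, where 0.929% of all genes rose, lay within 1.5 times of 5. The median log2 fold change of the 47 genes stayed between 0.71 and 1.26 in that comparison, whereas the median of all genes was -0.17 with library size alone, against -0.04. Over normal cerebellum 39 to 43 genes rose in EV tumours and 43 to 47 in MycT58A tumours. The share of all genes that rose ran from 23.7% to 34.4% in EV and from 24.5% to 40.1% in MycT58A tumours. The count that fell in EV tumours was 0 to 1 with 1 library left out, the 1 being Orc3 without EV replicate 1, and the MycT58A median was 3.15 to 3.30. Signs turned for 4 genes that had not passed. Between the tumour groups Rpa1, at 0.01 in the reported fit, was at -0.025 with RLE scaling, -0.11 with library size alone, -0.030 with the 1 CPM filter, -0.056 with only the tumour groups and -0.025 with DESeq2, and at -0.27 to 0.26 with 1 library left out. In EV tumours over normal cerebellum the values with 1 library left out were -0.054 to 0.31 for Orc4, -0.47 to 0.20 for Orc5 and -0.52 to 0.36 for Cdc7. Without the filter Orc5 was at 0.053, and Cdc7 was at -0.19 and -0.18 with limma-voom with and without weights. No paired analysis was possible because the labels give no replicate numbers. With 3 libraries a group and the spread of EV tumours, the causes of these shifts were not tested. Orc1, Cdc6, Mcm10, Gins1, Gins2, Dbf4, Pole2 and Chaf1b had at most 35 counts in any normal library, which limits their folds.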
